A study of Mus musculus with 48 samples.

Results

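Lungs of A/J mice that had received gas metal arc-stainless steel (GMA-SS) welding fume were compared with lungs of A/J mice that had received gas metal arc-mild steel (GMA-MS) fume, 4 weeks (28 days) after the last of 4 exposures. These 8 arrays, 4 of each fume, were taken by strain, fume and recovery time from a series of 48 arrays in 12 groups of 4. The groups used here were A/J GMA-SS, A/J GMA-MS and A/J sham at 4 weeks, the same exposures in C57BL/6J (B6) mice at 4 weeks, and A/J mice given either fume at 16 weeks. All were male mice bought at 4 weeks of age, both fumes were given by pharyngeal aspiration at 5 mg/kg each time, and sham mice received only the phosphate-buffered saline vehicle. The comparison asks which genes of the A/J lung differed between a fume containing chromium and nickel and one that was mostly iron, with no unexposed lung on either side. Each array held RNA of the whole lung of 1 mouse, so fewer cells of a type and less RNA per cell cannot be told apart.

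A/J is an inbred strain prone to lung tumors, and B6 is more resistant to them. Inhaled metal particles are engulfed by alveolar macrophages, which together with the epithelium release chemokines, small secreted proteins that draw neutrophils, monocytes and lymphocytes into the tissue through receptors on those cells. Acute phase proteins and complement are made in the same setting, while iron released from particles is stored in ferritin or exported from the cell. Chromium and nickel compounds are also known for oxidative and protein damage, which heat shock and metallothionein genes answer.

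Values are normalized log2 intensities of single probes, so a difference of 1 is a doubling, and levels of different probes are not compared. Testing was limited to the 11624 probes, for 8687 genes, whose signal exceeded the negative controls (detection p under 0.01) on 4 or more of the 24 arrays from 4 weeks. The 8 lungs had 10259 to 11127 probes detected. Of 10 lung markers such as the surfactant proteins, 9 were measured, and their median level was 14.19 to 14.39 in GMA-SS lungs and 14.34 to 14.41 in GMA-MS lungs. Each beadchip held 1 array of every group, and beadchip was a term of the fit. On every beadchip, however, each group took the same position, so position and fume cannot be told apart.

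GMA-MS replicate 1 and sham replicate 4 stood apart in tissue that adjoins the lung. Of 22 markers of stratified squamous epithelium, the lining of the esophagus, 14 were measured. Their median level was 10.75 to 11.58 in the 4 GMA-SS lungs, 7.51 in GMA-MS replicate 1 and 9.86 to 10.97 in the other GMA-MS lungs. It was 7.48 in sham replicate 4 and 10.46 to 11.79 in the other sham lungs. The keratin gene Krt13 read 7.497 in GMA-MS replicate 1, against 13.34 to 13.91 in the other GMA-MS lungs, and was not detected there. Skeletal muscle markers were lowest in the same array among the GMA-MS lungs, at 8.86 against 10.15 to 11.08. No gene of either list had an unadjusted p under 0.05, but their median differences of GMA-SS minus GMA-MS were 1.24 and 0.69, and without GMA-MS replicate 1 they were 0.15 and 0.31. Leaving out GMA-MS replicate 1 kept the direction and the side of the adjusted threshold for 97 of 106 named probes, turned the direction of 5 and brought 4 past the threshold, Mtus1 and 3 probes without a gene name. Of 42 list medians, 2 moved by more than their spread between beadchips, those of MHC class II genes (0.15 without the array and 0.20 with it) and of immediate early genes (0.12 without it and 0.05 with it). Adipose markers were highest in GMA-SS replicate 2, at 11.95 against 10.04 to 11.21 in the other GMA-SS lungs. They were 10.26 to 10.95 in GMA-MS lungs and 10.48 to 11.57 in sham lungs. Leaving out GMA-SS replicate 2 turned the direction of Adipoq, Cidea, Ucp1 and Npr3. At 1.3-fold with an unadjusted p under 0.05 it gave 78 higher and 42 lower probes, against 111 and 42 with it.

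At a Benjamini-Hochberg adjusted p under 0.05 from limma, 1 of the 11624 probes differed between the fumes (0.0086%), and it measured Cxcr4. Cxcr4 is the receptor for the chemokine Cxcl12 and holds lymphocytes, neutrophils and progenitor cells in the tissues that secrete it. Its level was 11.58, 12.45, 11.87 and 11.99 in GMA-SS replicates 1 to 4, against 12.11, 12.95, 12.45 and 12.66 in GMA-MS replicates 1 to 4. Sham lungs read 12.003, 12.52, 12.36 and 12.52. The ranges overlapped, but on each of the 4 beadchips the GMA-SS lung was the lower one, with differences of -0.67 to -0.51. Cxcr4 fell by 0.57 on the log2 scale (SE 0.09, adjusted p = 0.0396) in GMA-SS lungs relative to GMA-MS lungs. The call was kept without GMA-SS replicate 2 (adjusted p = 0.0369) and without GMA-MS replicate 1 (adjusted p = 0.0200). It was lost without each of the other 6 arrays (adjusted p 0.0644 to 0.141), with the difference between -0.62 and -0.52 throughout. Without the beadchip term the adjusted p was 0.668, and over all alternatives tried it ran between 0.0015 and 0.668.

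The next 12 probes shared an adjusted p of 0.0507. Among the genes they measured, Mtus1, a microtubule-associated protein, had a difference of -0.60 (SE 0.11; -0.66 and an adjusted p of 0.0203 without GMA-MS replicate 1), the receptor ligand Efna1 one of -0.37 (SE 0.07) and the meiosis gene Tex11 one of -0.51 (SE 0.09). The differences of Mast4, a kinase gene, and of Gfpt2, an enzyme that makes hexosamines, were 0.32 (SE 0.06) and 0.29 (SE 0.06). H2-D1, a classical MHC class I gene, had a difference of 0.61 (SE 0.11). Mast4, Gfpt2 and Efna1 were picked out after their values were seen.

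At an unadjusted p under 0.05 there were 1618 probes (13.9%), of which 566 (4.87%) had higher signal in GMA-SS lungs and 1052 (9.05%) lower. A 1.3-fold difference together with that p held for 153 probes (1.32%), 111 higher (0.955%) and 42 lower (0.361%). The median difference of all probes was -0.0146, with a median SE of 0.0689. The authors' deposited values gave 71 higher and 18 lower past both limits. Scaling each array to the median of all its probes moved the median difference to -0.30 and gave 25 higher and 3587 lower, and scaling to the probes detected on all arrays moved it to 0.10 and gave 1008 higher and 25 lower, so differences here are relative to the bulk of the probes. The number past the adjusted threshold also moved with single arrays. Leaving out GMA-MS replicate 1 gave 14 probes and leaving out GMA-MS replicate 2, 3 or 4 gave 0, while a fit of all 48 arrays, added after the data were seen, gave 87, with 33 higher and 54 lower.

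**Figure D1:**
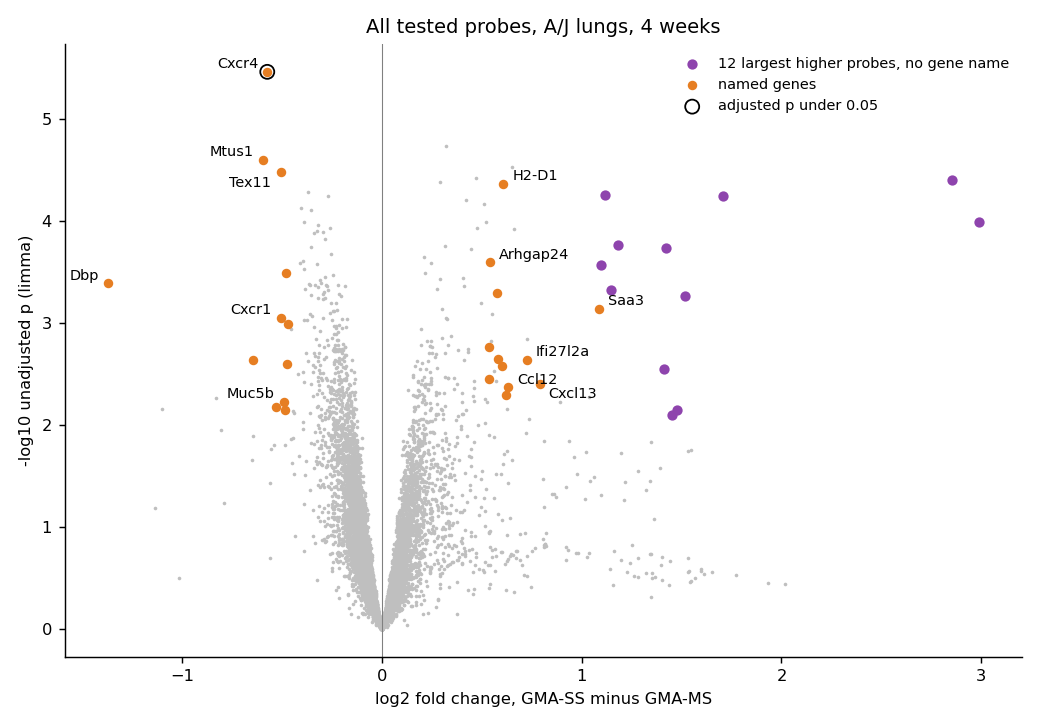
Log2 fold change of GMA-SS minus GMA-MS (horizontal) against -log10 of the unadjusted limma p (vertical) for 11624 probes in A/J lungs at 4 weeks. Cxcr4, ringed at -0.57, is the 1 probe past the adjusted threshold, and the 12 largest positive differences with an unadjusted p under 0.01 and 1 sign in all pairs, in purple, belong to probes without a gene name.

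Chemokine receptors were measured for 10 of 19 genes listed, and 2 of the 10 had an unadjusted p under 0.05, both lower in GMA-SS lungs. The background was 4.62% of genes higher and 9.66% lower at that p, counting 1 probe a gene. Of those 8687 genes, 3680 had a positive and 5007 a negative difference, and both backgrounds apply to the list counts that follow. The second receptor was Cxcr1, which neutrophils use to follow CXC chemokines. It read 8.95, 8.62, 8.74 and 8.61 in GMA-SS lungs and 9.39, 9.09, 9.47 and 8.99 in GMA-MS lungs, and the lowest GMA-MS lung was above the highest GMA-SS lung. GMA-MS lungs were also above the 8.39 to 8.70 of sham lungs. The difference was -0.50 (SE 0.13, adjusted p = 0.115). Of 10 neutrophil genes measured, 8 had a negative difference, where 5007 of 8687 genes did, and 0 an unadjusted p under 0.05. In S100a8 and S100a9 the GMA-SS lungs lay below all GMA-MS lungs, as they did in 2.41% of all genes. S100a9, which with S100a8 forms the calcium-binding protein calprotectin of neutrophils, was 11.26 to 11.54 in GMA-SS lungs, 11.57 to 12.06 in GMA-MS lungs and 11.70 to 12.23 in sham lungs (difference -0.43, SE 0.27). Around Cxcr4, its ligand Cxcl12 had a difference of 0.10 (95% interval -0.05 to 0.25), and the decoy receptor Ackr3, which also binds Cxcl12, one of 0.08 (SE 0.05).

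CC chemokines were measured for 13 of 20 genes, 4 of them with an unadjusted p under 0.05 and all 4 with the higher signal after GMA-SS. None passed the adjusted threshold. Ccl12, a monocyte attractant of mice, read 9.17, 9.04, 8.86 and 9.07 in GMA-SS lungs, 8.40, 8.80, 8.22 and 8.17 in GMA-MS lungs, and 7.65 to 8.07 in sham lungs. The 3 groups were thus stacked without overlap, with the GMA-SS lungs on top, and the difference between fumes was 0.63 (SE 0.19, adjusted p = 0.182). A further Ccl12 probe gave 0.30 (SE 0.10). Ccl8, which in mice binds the receptor Ccr8, read 9.12, 9.16, 8.58 and 8.99 in GMA-SS lungs and 8.30, 8.10, 7.93 and 8.11 in GMA-MS lungs. Its difference was 0.85 (SE 0.40, adjusted p = 0.354). Ccl3, made by macrophages, was 8.49 to 8.61 in GMA-SS lungs and 7.92 to 8.37 in GMA-MS lungs. Its groups did not overlap either, with a difference of 0.41 (SE 0.14), while the monocyte attractant Ccl7 had one of 0.40 (SE 0.14) with overlap. The median over the 13 genes was 0.11, or -0.07 and 0.34 with the all-probe and detected-probe scalings. Groups stood apart with GMA-SS on top for 3 of them, where 1.02% of all genes did (3.43% in either direction).

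The list of CXC chemokines, which also held the CX3C chemokine Cx3cl1, had 12 genes measured. Of these, 3 had the higher signal in GMA-SS lungs at an unadjusted p under 0.05 and 1, Cx3cl1, the lower, and their median was 0.02. Cxcl13, which draws B cells, read 10.19, 10.89, 10.38 and 10.25 in GMA-SS lungs, against 9.77, 10.00, 9.64 and 9.13 in GMA-MS lungs and 9.16 to 9.65 in sham lungs. All GMA-SS lungs lay above all others, with a difference between fumes of 0.79 (SE 0.24, adjusted p = 0.176). Cxcl9 attracts T cells and follows interferon gamma. It read 9.07, 10.70, 8.26 and 8.88 in GMA-SS lungs and 7.99, 8.16, 7.72 and 7.76 in GMA-MS lungs, of which only 1 was detected. The difference was 1.32 (SE 0.61, adjusted p = 0.343) and replicate 2 was the highest of both groups. Cxcl14, an epithelial chemokine, had a difference of 0.26 (SE 0.09), or 0.10 (SE 0.09) with a further probe. Cx3cl1, a chemokine anchored in the membrane, had one of -0.20 (SE 0.07).

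Saa3, a serum amyloid made outside the liver, had the largest positive difference among genes with a name, 1.09 (SE 0.27, 2.12-fold, adjusted p = 0.107), by the rule of an unadjusted p under 0.01 and 1 sign on all 4 beadchips. It read 10.93, 11.43, 11.40 and 11.93 in GMA-SS lungs, 10.55, 11.01, 9.75 and 10.03 in GMA-MS lungs, and 8.62 to 9.13 in sham lungs. Both fume groups lay above sham, and they overlapped each other through GMA-MS replicate 2. It was the only one of 10 acute phase genes measured with an unadjusted p under 0.05. Lcn2, a protein that binds bacterial iron carriers, was 13.47 to 14.12 in GMA-SS lungs, 13.29 to 13.94 in GMA-MS lungs and 12.16 to 12.45 in sham lungs. Its difference between fumes was 0.15 (95% interval -0.19 to 0.49).

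Complement was measured for 11 genes, 3 with the higher signal in GMA-SS lungs at an unadjusted p under 0.05 and 0 with the lower, and the median was 0.17 (-0.18 and 0.22 with the all-probe and detected-probe scalings). C1qc, a chain of the C1q complex that macrophages secrete, read 10.34, 10.88, 10.26 and 10.84 in GMA-SS lungs and 9.81, 10.28, 9.76 and 10.34 in GMA-MS lungs. The difference was 0.54 (SE 0.16, adjusted p = 0.173), of the same sign on every beadchip. C1qa, another chain, had a difference of 0.32 (SE 0.14), properdin (Cfp) one of 0.18 (SE 0.07), and complement factor B (Cfb) one of 0.22 (95% interval -0.06 to 0.49).

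Among genes of antigen presentation, 13 of the class II list were measured, 3 with the higher signal after GMA-SS at an unadjusted p under 0.05. Of the 13 differences, 11 were positive, where 3680 of all 8687 genes were. The list median was 0.20, 0.15 without GMA-MS replicate 1, and -0.10 and 0.30 with the all-probe and detected-probe scalings. Cd74, the class II invariant chain, was 14.51 to 15.43 in GMA-SS lungs and 14.12 to 15.20 in GMA-MS lungs, with a difference of 0.36 (SE 0.11, adjusted p = 0.184). The ranges overlapped, and replicates 2 and 4 were the high ones in both groups. H2-D1, of class I, read 13.75, 14.69, 14.12 and 14.52 in GMA-SS lungs, 13.58, 13.89, 13.58 and 13.59 in GMA-MS lungs and 13.82 to 14.19 in sham lungs. The GMA-MS lungs were the low group here, and the sham lungs lay within the range of the GMA-SS lungs. The class I relatives H2-Q5, a transcribed pseudogene in the reference annotation, and LOC547349 had differences of 0.58 (SE 0.16) and 0.60 (SE 0.17). Class I genes are near-identical copies of each other, so their probes may measure the same RNA. Tapbpl, which edits the peptides of class I molecules, had a difference of 0.54 (SE 0.15).

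The interferon list had 16 genes measured, 15 of them with a positive difference, where 3680 of all 8687 genes had one. The list median was 0.16, with an SD of 0.15 between beadchips, or -0.04 and 0.37 with the other scalings. The median level of the list was 9.51, 10.18, 9.47 and 9.72 in GMA-SS lungs, with replicate 2 the highest. It was 9.41 to 9.69 in GMA-MS lungs and 9.55 to 9.90 in sham lungs, which overlapped both fume groups. At an unadjusted p under 0.05, 4 had the higher signal in GMA-SS lungs and 1, Ifit2 at -0.19 (SE 0.08), the lower. Igtp, a GTPase that acts on vacuoles of parasites, had a difference of 0.80, and Irf9 and Psmb8, a transcription factor and a subunit of the immunoproteasome, had 0.30 and 0.34. The sensor gene Oas2 was detected in 2 GMA-SS lungs and in 0 GMA-MS lungs. Ifi27l2a, an interferon-induced gene outside the list, read 12.44, 12.78, 12.29 and 12.09 in GMA-SS lungs, above the 11.58, 11.87, 11.54 and 11.71 of GMA-MS lungs (difference 0.72, SE 0.21, adjusted p = 0.153). Sham lungs, at 11.91 to 12.28, were above all GMA-MS lungs and overlapped the GMA-SS lungs.

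**Figure D2:**
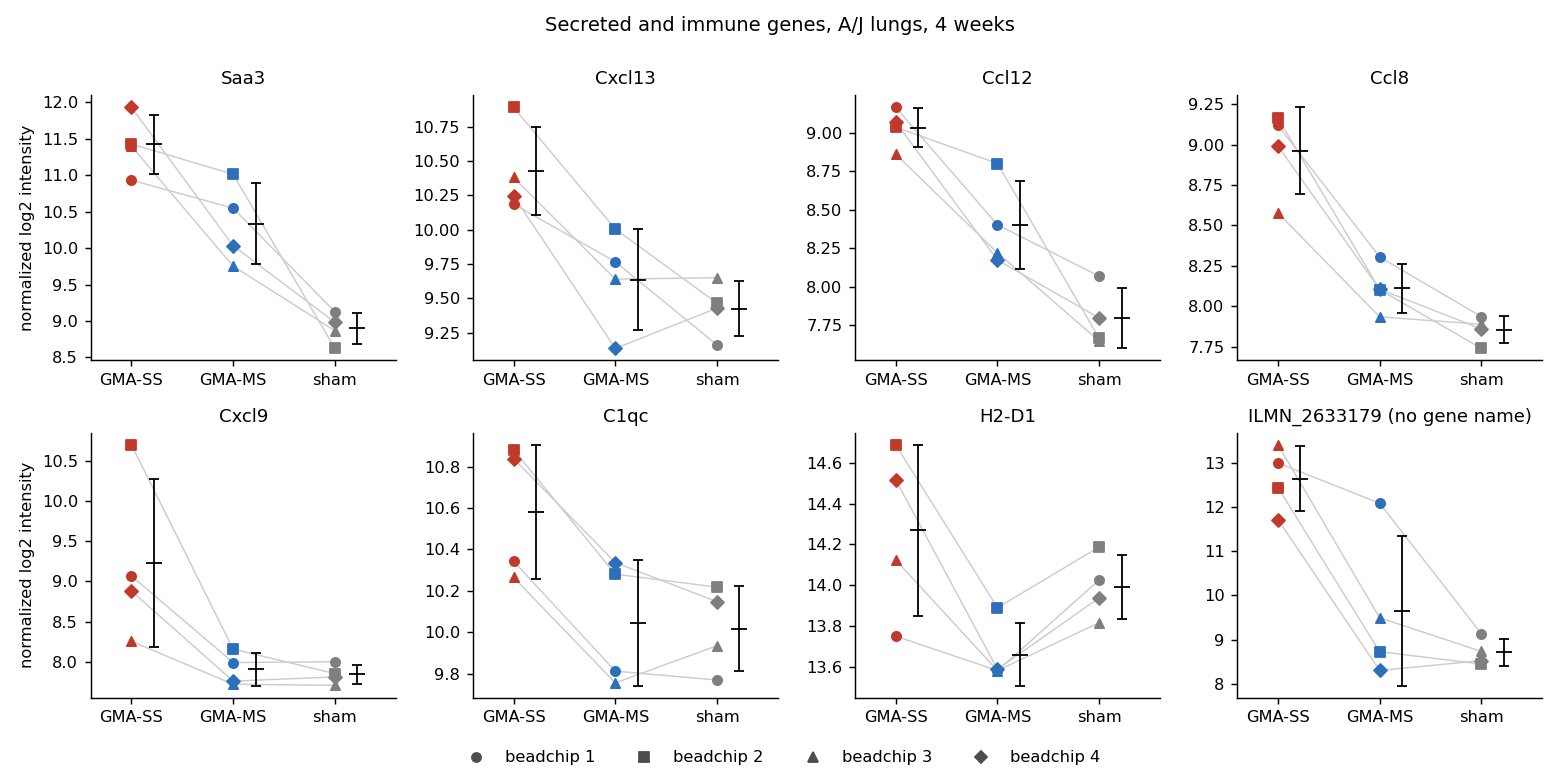
Normalized log2 intensity of 7 secreted or immune genes and 1 probe without a gene name in each A/J lung at 4 weeks (shapes name the beadchip, grey lines join arrays of 1 beadchip, black bars are mean and SD of 4 lungs). Saa3 and Ccl12 step down between GMA-SS, GMA-MS and sham, at means of 11.42, 10.34 and 8.90 for Saa3, whereas H2-D1 is lowest in GMA-MS lungs at 13.66.

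The circadian clock list held the largest negative difference of all genes with a name. The clock runs on Arntl, an activator, which with its partner Clock switches on Dbp, Tef, the Per genes and the repressors Nr1d1 and Nr1d2, and the Nr1d repressors in turn hold Arntl down, so that Dbp and Nr1d1 peak at the opposite time of day from Arntl. The hour at which lungs were taken is not given in the sources used here. In 12 clock genes measured, 3 had the lower signal in GMA-SS lungs at an unadjusted p under 0.05 and 1 the higher, around a median of -0.01.

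Dbp, a transcription factor of the output arm, read 10.86, 11.55, 10.68 and 10.18 in GMA-SS lungs and 12.15, 12.53, 12.24 and 11.82 in GMA-MS lungs. Sham lungs read 9.90, 10.95, 9.67 and 9.61. The fume groups did not overlap, and the GMA-MS lungs were also above all sham lungs, whereas GMA-SS and sham lungs overlapped. The difference between fumes was -1.37 (SE 0.32), a 2.58-fold higher mean in GMA-MS, with an adjusted p of 0.0850. The adjusted p was 0.0151 with only the 8 arrays compared, 0.0140 with all A/J arrays of 4 weeks and 0.00718 with all 48 arrays, and 0.387 without the beadchip term.

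Nr1d1 read 10.24, 11.14, 10.28 and 10.58 in GMA-SS lungs, 11.29, 11.70, 11.08 and 11.37 in GMA-MS lungs and 9.54 to 10.60 in sham lungs. Its difference was -0.80 (SE 0.28, adjusted p = 0.239), and 2 further probes of the gene gave -0.65 (SE 0.18) and -0.08 (SE 0.07). The probes of Nr1d2 disagreed too, with -0.47 (SE 0.12) from one that was detected in 2 GMA-SS and 4 GMA-MS lungs and -0.04 (SE 0.13) from the one that was detected in all 8 lungs. Tef, a relative of Dbp, was 13.08 to 13.37 in GMA-SS lungs and 13.35 to 13.98 in GMA-MS lungs (difference -0.39, SE 0.09, adjusted p = 0.0810). Arntl ran the other way. It read 10.23, 9.93, 10.21 and 10.46 in GMA-SS lungs and 9.89, 9.55, 9.98 and 10.03 in GMA-MS lungs, and GMA-MS lungs were below all 4 sham lungs (10.06 to 10.37). Its difference was 0.34 (SE 0.09, adjusted p = 0.140), or -0.04 with the all-probe scaling, where the median of all probes lay at -0.30. Per2, a repressor of the loop, had 0.05 (95% interval -0.42 to 0.52), while both fume groups, at 11.22 ± 0.18 after GMA-SS and 11.17 ± 0.30 after GMA-MS, had higher means than sham at 10.25 ± 0.62 (SD, n = 4 each).

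**Figure D3:**
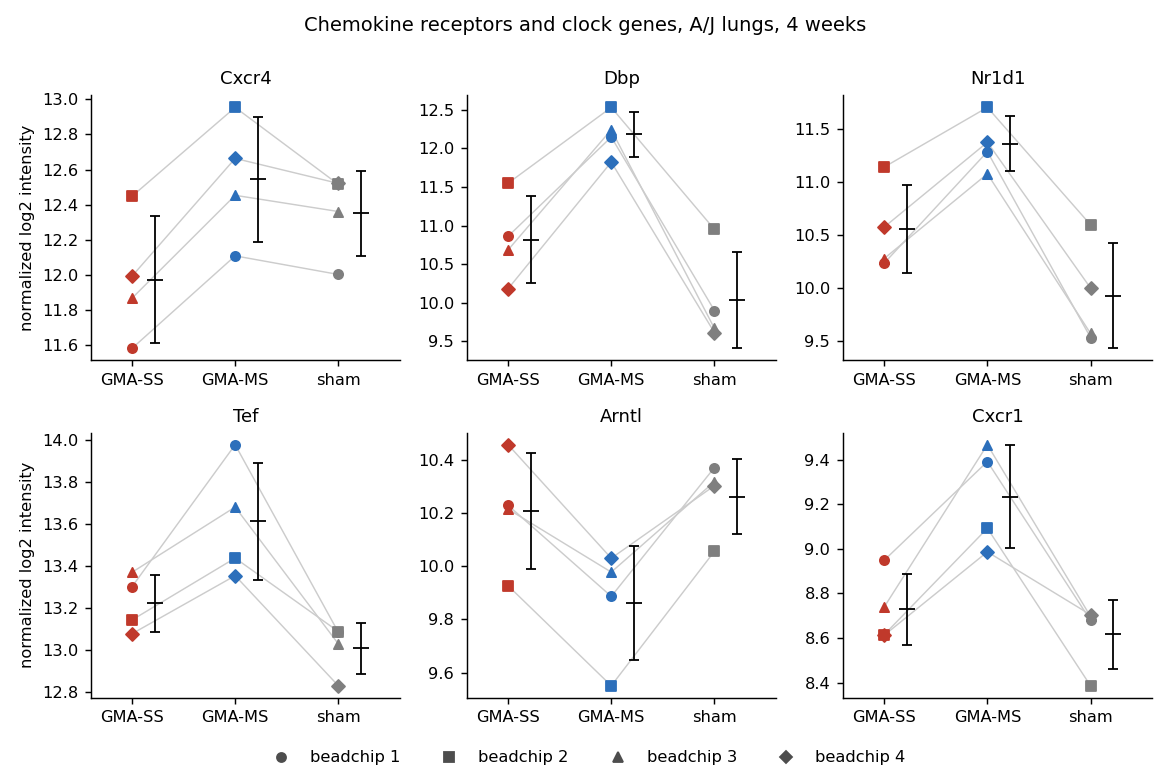
Normalized log2 intensity of Cxcr4, Cxcr1 and 4 clock genes in each A/J lung at 4 weeks, with shapes naming the beadchip, grey lines joining arrays of 1 beadchip and black bars giving mean and SD of 4 lungs. Dbp, Nr1d1 and Tef peak in GMA-MS lungs and Arntl is lowest there, and for Dbp the 4 GMA-SS values (10.18 to 11.55) lie below the 4 GMA-MS values (11.82 to 12.53).

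RefSeq promoters (GRCm38.p6, 250 bases before to 50 after the start) were at hand for 10 of the 12 clock genes measured, and are shown for those whose direction differed and that carry a clock element. Searched on both strands were the E-box CACGTG, bound by Arntl with Clock, the D-box TTANGTAA, bound by Dbp and Tef, and the ROR element (AANTN directly followed by GGTCA), bound by Nr1d1 and Nr1d2, with no overlap between these motifs. An E-box was found in Tef, at both of its starts, and in Per1, a ROR element in 1 start of Arntl, and a D-box in none of the 10 genes. Over all 32851 promoters the shares with a match were 7.15% for the E-box, 2.32% for the D-box and 0.606% for the ROR element. In the sequences, capitals mark the motif, and a match is a description of these letters only.
Tef promoter with the E-box (chr15:81802423-81802722, plus strand): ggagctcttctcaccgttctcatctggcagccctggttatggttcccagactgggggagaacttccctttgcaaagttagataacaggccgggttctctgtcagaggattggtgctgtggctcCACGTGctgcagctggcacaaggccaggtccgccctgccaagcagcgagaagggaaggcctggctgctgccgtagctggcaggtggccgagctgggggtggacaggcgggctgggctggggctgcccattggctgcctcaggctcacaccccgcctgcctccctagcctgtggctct
Tef promoter with the E-box (chr15:81811164-81811463, plus strand): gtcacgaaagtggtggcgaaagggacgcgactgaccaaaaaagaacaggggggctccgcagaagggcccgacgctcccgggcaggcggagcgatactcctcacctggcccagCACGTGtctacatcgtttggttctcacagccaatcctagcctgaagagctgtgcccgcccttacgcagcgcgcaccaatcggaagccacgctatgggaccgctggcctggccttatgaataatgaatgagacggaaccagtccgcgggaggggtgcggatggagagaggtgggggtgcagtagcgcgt
Arntl promoter with the ROR element (chr7:113207261-113207560, plus strand): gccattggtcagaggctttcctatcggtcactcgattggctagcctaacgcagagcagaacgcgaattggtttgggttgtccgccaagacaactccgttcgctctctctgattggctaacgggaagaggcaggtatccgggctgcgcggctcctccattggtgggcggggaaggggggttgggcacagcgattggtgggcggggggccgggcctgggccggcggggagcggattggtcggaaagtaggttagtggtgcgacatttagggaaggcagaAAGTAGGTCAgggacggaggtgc

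Genes of particle-laden macrophages were measured for 24 of 36 listed, and the 4 with an unadjusted p under 0.05 were split between 2 higher and 2 lower in GMA-SS lungs. Of all genes, 4.62% were higher and 9.66% lower at that p, so the lower count is near the background. The pair on the lower side were scavenger receptors. Marco, which takes up unopsonized particles, was 9.41 to 9.85 in GMA-SS lungs, 9.81 to 10.57 in GMA-MS lungs and 9.13 to 9.68 in sham lungs (difference -0.54, SE 0.20, adjusted p = 0.263). Cd36, which binds oxidized lipids, did not overlap between the fumes, at 8.05 to 8.32 in GMA-SS lungs against 8.41 to 8.81 in GMA-MS lungs (difference -0.33, SE 0.09, adjusted p = 0.145). On the higher side were Trem2, a lipid receptor, at 0.21 (SE 0.09), and the protease cathepsin K (Ctsk) at 0.31 (SE 0.14). Mmp12, the macrophage metalloelastase, was 10.61 ± 0.15 after GMA-SS, 10.35 ± 0.44 after GMA-MS and 8.54 ± 0.13 in sham lungs (SD, n = 4 each). Both fume groups were above sham without overlap, and the difference between fumes was 0.26 (95% interval -0.06 to 0.58).

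Metallothionein and iron genes had 23 members measured, 2 with the higher and 2 with the lower signal in GMA-SS lungs at an unadjusted p under 0.05, with a median of 0.04. Of all genes, 4.62% were higher and 9.66% lower at that p. Ferroportin (Slc40a1), the iron exporter, read 11.06, 10.92, 11.07 and 10.90 in GMA-SS lungs and 11.15, 11.40, 11.20 and 11.47 in GMA-MS lungs. The groups did not overlap, and the difference was -0.31 (SE 0.11, adjusted p = 0.239). Hepcidin (Hamp), the hormone that removes ferroportin from the membrane, was 9.17 to 9.48 in GMA-SS lungs and 9.56 to 9.99 in GMA-MS lungs (difference -0.41, SE 0.16). Sham lungs spanned both fume groups for hepcidin, at 9.08 to 10.04. The ferritin heavy chain Fth1 had a difference of 0.14 (SE 0.06) and the metallothionein Mt2 one of 0.18 (SE 0.08), whereas Mt1 had 0.10 and the heme oxygenase gene Hmox1 had 0.04.

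No gene of the heat shock, NRF2 and p53 lists passed the adjusted threshold. Of 15 cytosolic heat shock genes measured, 3 had the higher signal in GMA-SS lungs at an unadjusted p under 0.05. Of the 15 differences, 13 were positive, where 3680 of all 8687 genes were, with a list median of 0.06 (-0.27 and 0.14 with the other scalings). Dnajb1, a co-chaperone of Hsp70, read 13.25, 13.33, 13.41 and 13.09 in GMA-SS lungs, against 12.57, 12.45, 13.25 and 12.34 in GMA-MS lungs and 13.01, 13.67, 12.95 and 13.01 in sham lungs. The GMA-MS lungs were the low group, replicate 3 alone lying in the range of the GMA-SS lungs, while GMA-SS and sham lungs overlapped. The difference between fumes was 0.62 (SE 0.20, adjusted p = 0.187), that of GMA-SS minus sham 0.11 and that of GMA-MS minus sham -0.51. Hsph1, of the Hsp110 family, and Chordc1, an Hsp90 partner, had 0.44 (SE 0.20) and 0.30 (SE 0.11). Of 29 NRF2 antioxidant genes measured, 1 had the higher and 3 the lower signal at that p, near the 4.62% and 9.66% of all genes, and the list median was 0.00. Among these Gclc, which starts glutathione synthesis, had -0.30 and Txnrd1, a thioredoxin reductase, -0.23. The p53 list, with 17 measured, had 5 positive and 12 negative differences and a median of -0.07, where 5007 of all 8687 genes were negative. At an unadjusted p under 0.05 it had 1 gene higher and 2 lower, again near the shares of all genes. The higher one, the cell cycle inhibitor Cdkn1a, had a difference of 0.50 (SE 0.22), or 0.63 (SE 0.21) with a further probe. The lower ones were the DNA repair genes Xpc at -0.25 and Xrcc1 at -0.14, while another repair gene of the list, Ddb2, had -0.02 (SE 0.07).

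Lung endothelial genes had small and mostly negative differences. Of 27 measured, 26 had a negative difference, where 5007 of 8687 genes did, and 8 had the lower signal in GMA-SS lungs at an unadjusted p under 0.05, against 0 with the higher. The list median was -0.07, and it was -0.06 without GMA-MS replicate 1 and -0.42 and -0.01 with the all-probe and detected-probe scalings. Kank3, a cytoskeletal regulator, read 10.35, 10.46, 10.35 and 10.67 in GMA-SS lungs and 11.02, 10.48, 10.78 and 10.94 in GMA-MS lungs (difference -0.35, SE 0.11, adjusted p = 0.176). Calcrl, the receptor of adrenomedullin, had -0.26 (SE 0.08), Ednrb, an endothelin receptor, -0.20 (SE 0.08), and Plvap, of the diaphragms of fenestrae, -0.19 (SE 0.08). Pecam1, the common endothelial marker, had -0.19, and the 1 positive member was the flow-induced transcription factor Klf2 at 0.20 (95% interval -0.07 to 0.47).

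Among epithelial and mucosal genes, Muc5b, the mucin of airway glands and club cells, read 11.24, 11.51, 11.44 and 11.64 in GMA-SS lungs, below the 12.18, 11.80, 11.97 and 11.84 of GMA-MS lungs and in the range of the 11.19 to 11.76 of sham lungs. Its difference was -0.49 (SE 0.16, adjusted p = 0.197). In the same list of 13 type 2 mucosal genes, 6 differences were positive and 7 negative around a median of -0.01, and at an unadjusted p under 0.05 Muc5b had the lower signal and 3 genes the higher. Of these 3, Itln1, a lectin, had 0.38, Retnla, a resistin-like protein of macrophages and epithelium, 0.52, and Slc26a4, an anion exchanger, 0.28. The largest negative difference of the list was that of Bpifa1, a secreted airway protein also counted among the club cell genes, which read 10.44, 11.02, 10.37 and 10.71 in GMA-SS lungs, 10.70, 11.65, 11.53 and 11.81 in GMA-MS lungs and 10.78 to 13.28 in sham lungs (difference -0.79, SE 0.39, adjusted p = 0.382). Its fume groups overlapped. Surfactant and alveolar type II genes (16 measured) had a median of 0.00, alveolar type I genes (8 measured) one of -0.04 and ciliated cell genes (13 measured) one of 0.06. Club cell genes (10 measured) had a median of -0.03, with 7 negative differences, where 5007 of all 8687 genes had one. In 1 of the 10 the signal was lower at an unadjusted p under 0.05, against 9.66% of all genes. It was the retinal dehydrogenase gene Aldh1a1 at -0.20 (SE 0.08). T and NK cell genes had 13 positive and 3 negative differences (median 0.11), and B and plasma cell genes 7 positive and 6 negative (median 0.05). Among these lymphocyte genes at an unadjusted p under 0.05, T and NK cell genes had 2 of 16 and B and plasma cell genes 1 of 13. All 3 had the higher signal in GMA-SS lungs, as did 4.62% of all genes. Rgs1, which dampens chemokine receptor signals, read 8.32 to 8.59 in GMA-SS lungs, 7.999 to 8.42 in GMA-MS lungs and 7.74 to 7.90 in sham lungs (difference 0.28, SE 0.08). The others were Il7r, a survival receptor of T cells, at 0.28 (SE 0.12) and Mzb1, a chaperone of antibody assembly, at 0.44 (SE 0.20). Of 9 Fc receptor genes measured, 5 had a positive and 4 a negative difference, and 2 had the higher signal at an unadjusted p under 0.05. Fcgr2b, the inhibitory Fc receptor, was 9.32 to 9.55 in GMA-SS lungs and 9.16 to 9.28 in GMA-MS lungs, with a difference of 0.22 (SE 0.07). It was the 1 gene of that list whose groups did not overlap, as in 1.02% of all genes with GMA-SS on top.

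**Figure D4:**
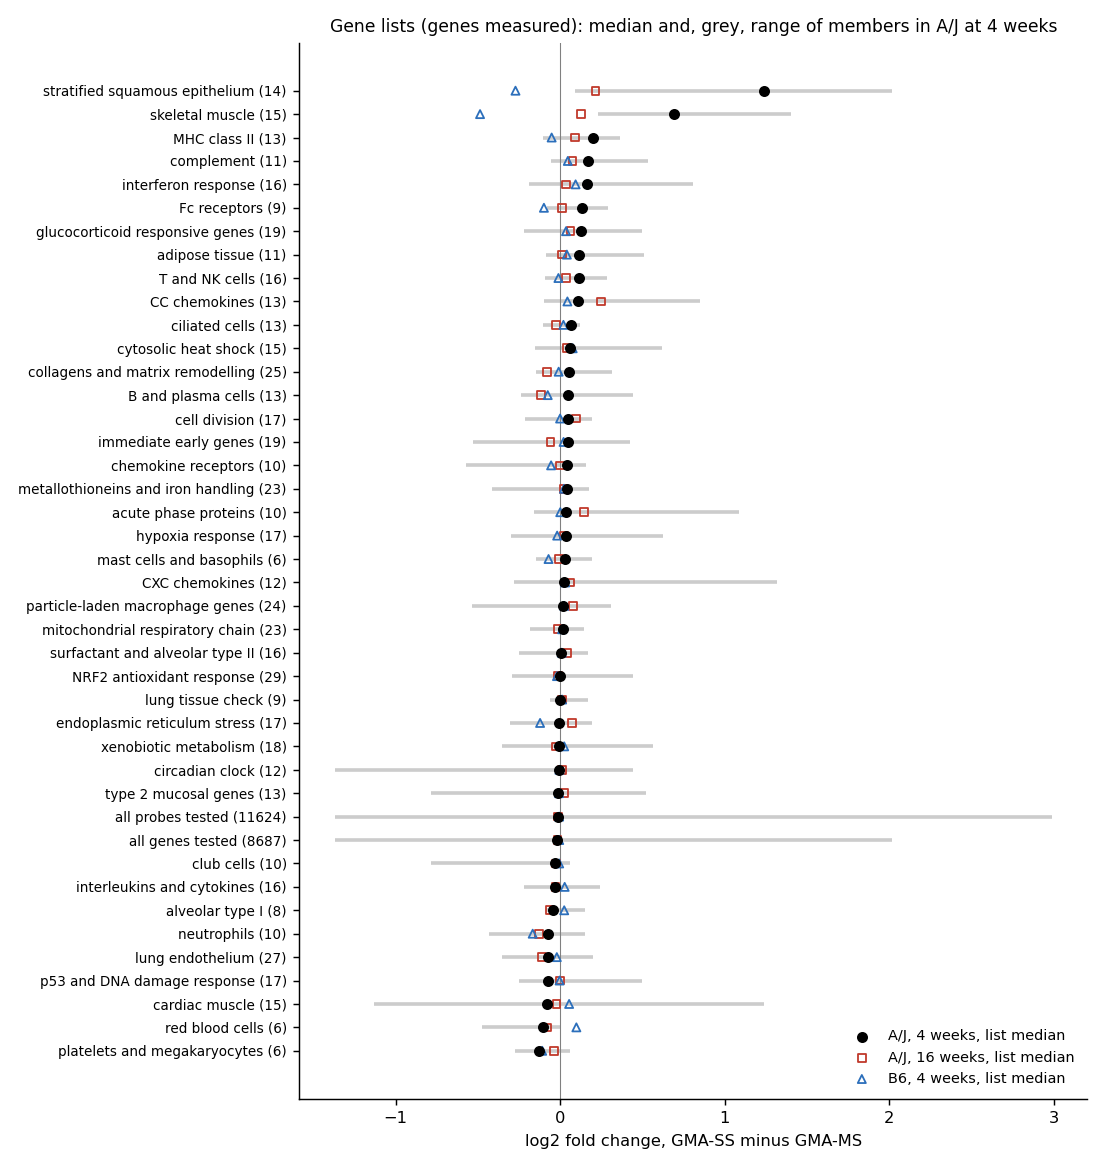
Median log2 fold change of GMA-SS minus GMA-MS over the measured genes of each list (black, A/J at 4 weeks, with the range of members in grey), beside the medians in A/J at 16 weeks and B6 at 4 weeks. Squamous epithelium and skeletal muscle lie farthest right at 1.24 and 0.69, and the other lists lie within 0.20 of 0.

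The largest positive differences came from probes to which the array annotation used here gives no gene. Of the 464 probes with an unadjusted p under 0.01 and 1 sign in all 4 pairs, 157 were higher and 307 lower in GMA-SS lungs, and the 12 largest of the higher ones were all without a name, at 1.10 to 2.99, as was 1 of the 12 largest lower ones, ILMN_1216895 at -0.83. ILMN_2633179 read 12.99, 12.44, 13.40 and 11.71 in GMA-SS lungs, 12.08, 8.72, 9.49 and 8.30 in GMA-MS lungs and 8.45 to 9.13 in sham lungs (difference 2.99, SE 0.61, adjusted p = 0.0556). ILMN_2677207 behaved alike, at 10.91 to 12.56 in GMA-SS lungs and 7.77 to 11.27 in GMA-MS lungs, with a difference of 2.85 (SE 0.53). In both, GMA-MS replicate 1 was the high array of its group and read above GMA-SS replicate 4. Without it the differences were 3.74 (adjusted p = 0.00556) for ILMN_2633179, 3.54 (adjusted p = 0.00168) for ILMN_2677207 and 1.27 (adjusted p = 0.0200) for ILMN_2478220. Over the 24 arrays of 4 weeks, which share beadchips and groups, the pairwise correlations of the 12 probes had a median of 0.71 and ran between 0.14 and 0.98. These probes were picked for a difference in the same direction among 8 of those arrays, so positive correlation follows in part from the choice. ILMN_1238932 was detected in 3 GMA-SS lungs and in 0 GMA-MS lungs and was at least 2.54-fold higher in GMA-SS lungs, the bound being the lowest signal of probes detected on each array (adjusted p = 0.213).

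The other named genes had smaller differences. On the higher side, Arhgap24, which turns off Rac signaling, was 9.20 to 9.53 in GMA-SS lungs and 8.70 to 8.93 in GMA-MS lungs (difference 0.54, SE 0.12, adjusted p = 0.0757), and Was, the actin regulator of blood cells, had 0.58 (SE 0.14). On the lower side, Lpar3, a receptor for lysophosphatidic acid, was 8.97 to 9.61 in GMA-SS lungs, against 9.66 to 9.93 in GMA-MS lungs (difference -0.48, SE 0.11, adjusted p = 0.0848). Sham lungs, at 9.35 to 9.44, fell within the GMA-SS range. Alas2, the heme enzyme of red cell precursors, had -0.47 (SE 0.14), the matrix protein gene Ccn1 -0.53 (SE 0.17) and Fam13a, a gene tied to human lung function, -0.49 (SE 0.16). A further Ccn1 probe gave -0.24 (SE 0.12). Klf4, an early response transcription factor, had 0.43 (SE 0.15), at 11.93 to 12.34 in GMA-SS lungs, 11.44 to 12.16 in GMA-MS lungs and 11.96 to 12.64 in sham lungs. Further Klf4 probes gave 0.20 (SE 0.14) and 0.20 (SE 0.11).

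The fume difference was set against the same difference in B6 lungs on the same beadchips. No probe passed the adjusted threshold for a difference between the strains (0%), with 1475 at an unadjusted p under 0.05, nor did any for the fumes within B6, with 1106 at that p. The smallest adjusted p for the strains was 0.0570, for Gfpt2 and Cxcr4. Cxcr4 differed between fumes by -0.57 in A/J and 0.17 in B6 lungs, a gap of -0.75. Dbp had -1.37 in A/J and -0.76 in B6 lungs, and Nr1d1 -0.80 in A/J and -1.23 in B6 lungs, with adjusted p of 0.574 and 0.677 for the gaps. H2-D1, in contrast, had 0.61 in A/J and 0.00 in B6 lungs (adjusted p = 0.218). Of the 24 named genes with the largest differences, 12 in each direction, 16 had the same sign in B6, where 45.9% of all probes did. Over all 8687 genes, the fume difference in A/J lungs had a correlation of -0.24 with that in B6 lungs. Of the 12 largest higher probes without a name, 11 had a positive difference in B6 lungs too. Those 12 probes correlated with each other (median 0.71), so they cannot be counted as 12 separate observations.

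A/J lungs of 16 weeks were other animals on other beadchips, again with each group at its own position. Among 12223 probes tested in both times together, 1 (0.00818%) differed between the times in the fume contrast, and 570 had an unadjusted p under 0.05. It was Tex11, for which GMA-SS minus GMA-MS was 0.10 at 16 weeks and -0.48 at 4 weeks in that fit, a gap of 0.58 (SE 0.10, adjusted p = 0.0465). Its 4-week levels were near the detection limit, at 7.95 to 8.13 in GMA-SS lungs, of which 3 were detected, and 8.36 to 8.75 in GMA-MS lungs. The call was kept without GMA-SS replicate 1 and without GMA-MS replicate 4, was lost without each of the other 6 A/J arrays of 4 weeks (adjusted p up to 0.135), and was lost without the beadchip term (adjusted p = 0.0824). Of the same 24 named genes, 22 had at 16 weeks the sign of 4 weeks, where 63.9% of all probes did, and all 12 probes without a name had a positive difference at 16 weeks, 2 of them past the adjusted threshold there. The 2 were ILMN_2478220 at 2.19 and ILMN_2432255 at 1.56. As the 12 probes correlated with each other at 4 weeks, they cannot be counted as 12 separate observations. Cxcr4 had -0.37 at 16 weeks (adjusted p = 0.0502), while Dbp had -0.23 (adjusted p = 0.899) and Tef 0.03.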

How the data were processed

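RNA of whole lungs from single mice was hybridized to Illumina MouseRef-8 v1.1 beadchips, 1 mouse an array. Per the file headers the deposited scanner tables, made by the authors with BeadStudio, hold for each probe a mean bead intensity, not normalized, a bead standard error (a signal in the same unit), a bead number and a detection p-value against negative controls. The authors also deposited log2-like values, normalized by them with lumi (forced-positive background, variance stabilization, robust spline) for each time point apart, which were used as an alternative. All columns of per-sample values were mapped to samples by their labels, and 0 were left out as unmapped.

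Intensities were background corrected with normexp on the detection p, given an offset of 16 and quantile normalized over the 24 arrays of 4 weeks (neqc, limma 3.58.1 in R 4.3.3), with 4 probe identifiers on 2 rows averaged. Probes with detection p under 0.01 on 4 or more of 24 arrays were tested. Gene names came from the platform annotation, updated through Entrez identifiers to current symbols for 20968 probes (20984 probes have 1 gene, 1 several and 3628 none). In counts of genes, each gene was taken by its brightest probe. A limma model of the 6 groups of 4 weeks with beadchip as a fixed block gave GMA-SS minus GMA-MS in A/J and B6 lungs and the difference of the strains. A fit of all 48 arrays, normalized together, with 12 groups, beadchip as block and 12223 probes tested, gave the A/J difference of 16 minus 4 weeks. Adjusted p-values are Benjamini-Hochberg over all probes tested, two-sided. The number of arrays, 4 a group, limits the precision.

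Same-numbered arrays shared a beadchip by the labels and scanner tables, and they deviated together from their group means: the mean correlation within beadchips was 0.261, 0.424, 0.354 and 0.321, and -0.115 between them. The residual SD was 0.0984 with the block and 0.141 without it.

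Named were every probe called, the 12 largest differences in each direction with an unadjusted p under 0.01 and 1 sign on all 4 beadchips, and genes named in the study's text. Of some lists, up to 4 members were added, by smallest p, or by largest difference for tissues next to the lung. As the 12 largest higher probes had no gene name, the 12 largest with a name were added after values were seen, as were Mast4, Gfpt2, Efna1, Cxcl12, S100a8, S100a9, Pecam1, Bpifa1, Mt1 and Hmox1. Igtp, Gclc, Txnrd1, Cdkn1a, Xpc, Xrcc1, Ddb2, Itln1, Retnla, Aldh1a1, Rgs1, Il7r, Mzb1 and Fcgr2b were likewise picked after their values were seen. The comparison, the 42 gene lists and the tests were chosen with earlier results of these data known. Alternatives were no background correction, the authors' values, other scalings, filters and sample sets, 1 probe per gene, no block, an intensity trend with robust variance and leaving out each array. The code was tested on simulated data with known changes.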

Additional observations from a re-analysis of the deposited data

Results flagged for a closer look

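In 212 groups of 4 lungs, formed by the 106 named probes in each fume group, 12 had 1 lung far from the others, with a gap to its neighbour, as a share of the whole range, past Dixon's critical value for 4 values, where chance gives about 1 in 20. In GMA-SS lungs these were Tex11 in replicate 4 (gap 0.976 of the range, at 7.95 against 8.13 in the others), ILMN_1246353 in replicate 3 (0.929), the natriuretic peptide gene Nppa in replicate 1 (0.833) and the chemokine receptor gene Ccr6 in replicate 3 (0.856). In GMA-MS lungs, H2-D1 stood apart in replicate 2 (0.979, at 13.89 against 13.58 to 13.59), as did Ch25h, a cholesterol hydroxylase, in the same array (0.832). GMA-MS replicate 3 stood apart for Hsph1 (0.871, at 12.73 against 11.82 to 11.94), for the cardiac gene Pln (0.938) and for Depp1 (0.841), and GMA-MS replicate 4 for Nppa (0.871). Krt13 (0.911) and Lor (0.894) marked GMA-MS replicate 1, the array without squamous epithelium signal.

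The fume difference of Tex11 differed between the recovery times by a test of the difference itself, at 0.10 for 16 weeks and -0.48 for 4 weeks, a gap of 0.576 on the log2 scale (SE 0.10, adjusted p = 0.0465 by limma). No probe met that threshold for a difference between the strains.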

How the results depend on the processing

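Against 1 probe past the adjusted threshold, no probe (0) passed with either scaling to a median or without the detection filter, 16 (10 higher, 6 lower) with probes detected on all 4 arrays of a group, 12 (7 and 5) with only the groups compared and 12 (7 and 5) with an intensity trend and robust variance, 8 (4 and 4) with all A/J arrays and 87 with all 48 arrays, the alternative added later. Without the replicate block 0 passed, and leaving out single arrays gave 0 to 14. At 1.3-fold with an unadjusted p under 0.05, 153 became 89 (71 and 18) with the authors' values, 3612 with all-probe scaling, 1033 with detected-probe scaling, 87 with 1 probe per gene, 249 (202 and 47) with only the groups compared and 120 to 197 with single arrays left out. The strain difference had 1 probe with detected-probe scaling and with the trend, 2 with 1 probe per gene and 0 to 1 with single arrays left out, against 0. The time difference, 1 probe, had 3 with the authors' values and with probes detected on all 4 arrays of a group, 0 without background correction, with either scaling, without the filter, without the block and with only the groups compared, and 0 to 3 with single arrays left out. All-probe scaling, which moved the median of all probes to -0.30, turned 26 named differences, to -0.035 for Arntl, -0.11 for Cxcl14 and Slc26a4, -0.059 for Chordc1, -0.056 for Adipoq, -0.20 for Cfp, -0.16 for Fth1 and Cfb, -0.099 for Irf9, -0.10 for Cd83, -0.032 for Mt2, -0.027 for C1qa, -0.026 for Ackr3, -0.0099 for Psmb8, -0.047 for Ctsk, -0.089 for H2-DMa, -0.012 for H2-DMb1, -0.19 for Bag3, -0.22 for C2, -0.24 for Itih4, -0.13 for Mmp12, -0.15 for Klf2, -0.069 for Ccl4, -0.17 for Lcn2, -0.00039 for Ucp1 and -0.33 for Per2, and detected-probe scaling turned Nr1d2 to 0.30. Leaving out single arrays gave differences of -0.084 to 2.39 for Crct1, -0.061 to 2.94 for Krt13, -0.13 to 3.14 for Lor and -0.090 to 2.22 for Krt4, each lowest without GMA-MS replicate 1. It gave -0.56 to 0.18 for Zbtb16, -0.099 to 0.025 for Nr1d2, -0.098 to 0.18 for Per2, -0.20 to 0.0014 for Npr3, -0.022 to 0.72 for Adipoq, -0.25 to 0.67 for Cidea and -0.32 to 1.12 for Ucp1. For none of these was the cause tested, beyond the shift of all probes by the scaling. List medians moved past the spread between beadchips in 37 of 42 lists with all-probe scaling and in 27 with detected-probe scaling. No probe near background carries a firm fold, and position on the beadchip cannot be told apart from fume.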
